A study of Mus musculus with 8 samples.

Results

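Mitochondrial ribosomal protein genes were followed in kidneys of mice given bisphenol A (BPA). The members were all protein-coding genes of the deposited table whose symbol begins with Mrpl or Mrps and a number, which gave 78 of the 54532 genes listed. Of these, 51 encode proteins of the large subunit, among them Mrps18a and Mrps30 despite their names, and 26 encode proteins of the small subunit. The remaining member, Mrps36, keeps a ribosomal name but encodes a protein now placed in the alpha-ketoglutarate dehydrogenase complex.

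Mitochondria carry their own ribosome, which makes the few core subunits of the respiratory chain that mitochondrial DNA encodes. Its rRNAs come from mitochondrial DNA, whereas all of its proteins are encoded in the nucleus, made in the cytosol and imported. Some of these proteins have bacterial relatives and others are found only in mitochondrial ribosomes. The proximal tubule of the kidney is rich in mitochondria, which power its uptake of salt and solutes.

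The study sequenced polyadenylated RNA of kidneys from ICR mice, an outbred stock, in 4 libraries after BPA and 4 after vehicle. BPA is a monomer of polycarbonate plastics and binds estrogen receptors weakly. The sources used here give no dose, route, duration, sex, age or allele. Nothing in the labels ties each library to its own animal, so a p-value here reflects the spread of these 8 samples, and that spread may be technical.

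The libraries held 15944081 to 17351540 reads, and the members took 0.208% to 0.350% of them. Genes of the proximal tubule were abundant throughout, with Lrp2, the endocytic receptor megalin, at 153 to 236 FPKM in BPA and 151 to 172 FPKM in vehicle. FPKM here means reads scaled by the length of the gene and a size factor of the library. Single libraries stood apart. BPA replicate 4 had reads on the fewest genes, 17174, while the other 7 libraries had 19090 to 20845. Acta1, a skeletal muscle gene, was at 103 FPKM in vehicle replicate 4 and at 0 in the other 7 libraries. Mitochondrially encoded genes took 14.2% of reads in BPA replicate 4 and 9.66% to 9.85% in BPA replicates 1 to 3, against 7.02% to 8.33% in vehicle. Changes of the members are therefore given with and without BPA replicate 4. Markers of kidney cell types also moved with libraries and groups. The 6 proximal tubule markers summed to 1540 to 2220 FPKM in BPA and 1840 to 2070 FPKM in vehicle, and among them Slc5a12 had a change of 0.81 and Slc22a6 of -0.25. All 3 podocyte markers were higher in value in BPA, with a median change of 0.69, and summed to 28.9 to 51.0 FPKM in BPA, against 42.4, 44.2, 12.1 and 10 FPKM in vehicle replicates 1 to 4. All 3 endothelial markers were higher too, with a median of 0.55, and summed to 9.37 to 22.6 FPKM in BPA, against 16.2, 18.3, 4.57 and 5.87 FPKM in vehicle. No marker of these 3 lists had an unadjusted limma p under 0.05. The 4 fat markers summed to 0 to 4.05 FPKM in BPA, against 0.176, 20, 5.07 and 50.1 FPKM in vehicle. The part of these cell types in the changes of the family was not tested. In whole kidney, fewer cells of a type and less RNA per cell cannot be told apart.

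The family spanned a wide range of levels. Of the 78 members, 77 reached the minimum of 0.5 FPKM on average and were tested, and 70 averaged 5 FPKM or more in vehicle. Mean vehicle levels ran from 1.37 to 84.5 FPKM, a 61.7-fold range, with a median of 16.6 FPKM against 4.58 FPKM over all 13376 tested genes. The highest was Mrps21, which encodes bS21m of the small subunit. It had 60.4, 74.4, 72.1 and 18.6 FPKM in BPA replicates 1 to 4, against 82.5, 66.3, 99.3 and 89.9 FPKM in vehicle replicates 1 to 4. BPA replicate 4 lay far below the other 7 libraries, whose values overlapped between the groups, and the change was -0.74 with it and -0.28 without it. The next 4 by vehicle level were Mrpl34, Mrpl12, Mrpl28 and Mrpl10, all of the large subunit. Mrpl12 encodes bL12m of the ribosomal stalk, the arm that recruits translation factors, and averaged 48.6 ± 7.0 FPKM in BPA, or 52.1 ± 1.85 FPKM without BPA replicate 4, and 57.5 ± 14.7 FPKM in vehicle (SD, n = 4 each, or 3). Mrpl10 encodes the protein that anchors the stalk to the ribosome, and averaged 56.4 ± 12.7 FPKM in BPA, or 61.0 FPKM without BPA replicate 4, and 56.0 ± 9.30 FPKM in vehicle. In vehicle, the means of these 4 genes ran from 56.0 to 75.9 FPKM with SDs of 6.19 to 15.2 FPKM. Mrpl34, at 75.9 ± 15.2 FPKM, was above Mrpl12 in every vehicle library. Mrpl12, Mrpl28 and Mrpl10 did not differ beyond their spread.

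At the low end, Mrps10, Mrpl33, Mrps25, Mrpl19 and Mrpl23 averaged 1.37 to 3.10 FPKM in vehicle. Their gene lengths used for scaling were 8079, 7326, 6576, 5450 and 4883 bases, in this order. Their reference transcripts were 1018, 478, 6073, 5000 and 692 bases. The part of the scaling length in their low rank and in the range of the family was not tested. Of the exon bases, 69.8% in Mrps25 lie opposite exons of Nr2c2, and 36% in Mrpl19 opposite exons of Gcfc2. Mrpl33 was at 1.59 ± 0.178 FPKM in BPA and 1.66 ± 0.255 FPKM in vehicle. Mrps25 was at 2.56 ± 0.437 and 2.44 ± 0.217 FPKM, and Mrpl19 at 2.97 ± 0.488 and 2.94 ± 0.309 FPKM, in BPA and in vehicle. Mrpl23 was at 2.60 ± 0.683 FPKM in BPA and 3.10 ± 0.751 FPKM in vehicle. The BPA means of these 4 genes were 1.66, 2.71, 3.19 and 2.78 FPKM without BPA replicate 4. In none of them, with or without this library, did the group means differ by more than the larger SD of the groups. Mrpl53 was listed at 0 in all 8 libraries and was not tested. In the annotation, 88.0% of its exon bases are shared with Gm42688 on the same strand, which was itself at 0.457 FPKM or less.

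**Figure D1:**
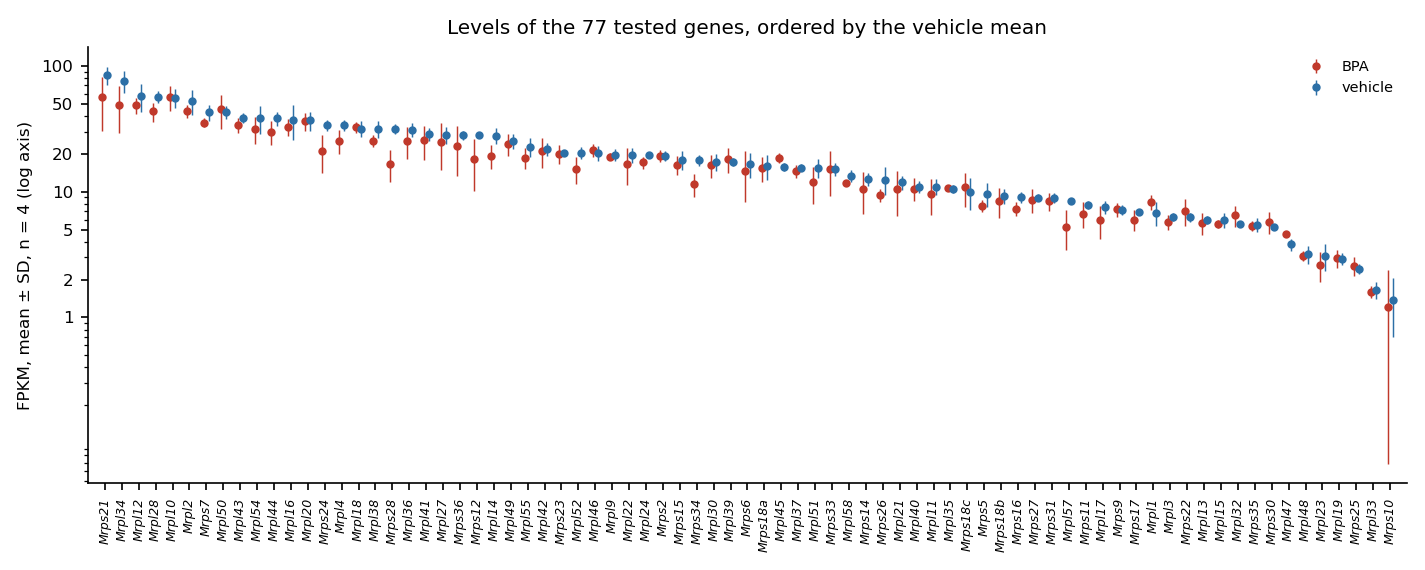
Level of each of the 77 tested mitochondrial ribosomal protein genes in FPKM on a log axis, as the mean with SD over 4 BPA libraries (red) and 4 vehicle libraries (blue), ordered by the vehicle mean. Mrps21, Mrpl34 and Mrpl12 lead on the left, Mrps10 ends the row on the right with the widest bars for its level, and the BPA mean lies below the vehicle mean for most genes.

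The comparison of BPA with vehicle asked whether the family differed between the groups. Over all 8 libraries, 61 of the 77 tested members were lower in BPA and 16 were higher in value, with a median change of -0.17 on the log2(FPKM + 1) scale. Over all 13376 tested genes, 52.0% were lower and the median change was -0.01. No member passed limma's test at a Benjamini-Hochberg adjusted p under 0.05, against 0.00748% of all tested genes (1 gene), and the smallest adjusted p of a member was 0.306. At an unadjusted p under 0.05, 10 members were lower, or 13.0% of the family against 6.83% of all genes. A single member, Mrpl47, was higher at that level, or 1.30% against 4.18%.

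Without BPA replicate 4, the family no longer leaned to one side. Of the 77 members, 42 were lower in BPA and 35 were higher in value, close to the 50.9% of all genes that were lower. The median change was -0.02, against -0.01 over all genes, and 19 members that were lower over all libraries were higher without this library. In this fit 8 members were lower at an unadjusted p under 0.05, or 10.4% against 6.12% of all genes. The 2 fits share every other library, so they are not independent. All 8 were among the 10 above, namely Mrps28, Mrps34, Mrps24, Mrps12, Mrpl57, Mrpl14, Mrpl28 and Mrpl52. Of the other 2, Mrpl4 had a change of -0.25 (limma, unadjusted p = 0.0504) and Mrps16 of -0.19 (limma, unadjusted p = 0.0864). Higher at that level were Mrpl32, Mrps22 and Mrps30, or 3.90% against 4.07%. By limma, 0 members and 2 of all 13376 genes, or 0.015%, passed adjustment, and the smallest adjusted p of a member was 0.243.

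**Figure D2:**
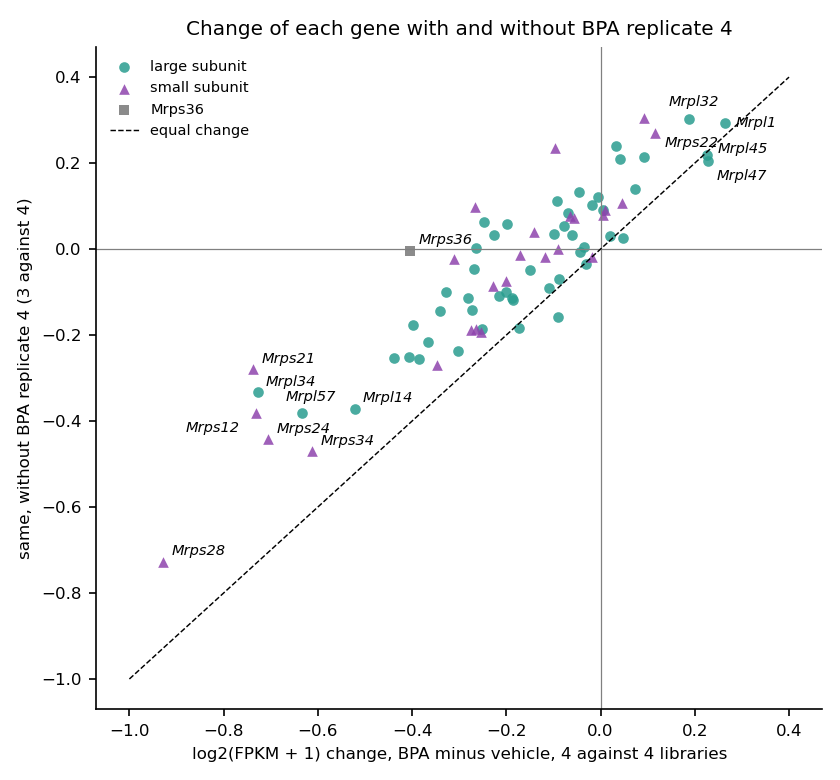
Change of each of the 77 tested genes, BPA minus vehicle on the log2(FPKM + 1) scale, over all 8 libraries (horizontal axis) and without BPA replicate 4 (vertical axis); circles are large subunit genes, triangles small subunit genes, and the square is Mrps36. Most points lie above the dashed line of equal change, and Mrps28, at -0.93 and -0.73, lies lowest on both axes.

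Groups that do not overlap were counted too, from the same values as the limma p, so the counts are not separate evidence. In 9 members every BPA library was below every vehicle library, or 11.7% of the family against 4.66% of all genes. These were Mrps28, Mrps34, Mrps24, Mrps12, Mrps17, Mrpl57, Mrpl14, Mrpl4 and Mrpl52. Mrpl47 was the 1 member with every BPA library above every vehicle library, or 1.30% against 3.23%. Without BPA replicate 4, 10 members lay below, or 13.0% against 6.10%, with Mrpl37 added. In the other direction, 4 members lay above, Mrpl47, Mrpl32, Mrps22 and Mrps30, or 5.19% against 4.90%.

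Library by library, the family as a whole was low in a single BPA library. The median deviation of the 77 members from their gene means was 0.04, 0.07, 0.01 and -0.43 in BPA replicates 1 to 4, against 0.07, -0.09, 0.23 and 0.12 in vehicle replicates 1 to 4. BPA replicate 4 was the lowest and vehicle replicate 3 the highest, and the other 6 libraries of both groups overlapped. BPA replicate 4 was the lowest of the 8 libraries for 62 members, or 80.5% against 28.4% of all tested genes. This was not particular to the family, since it was also the lowest for 62 of the 76 tested cytosolic ribosomal protein genes. Vehicle replicate 3 was the highest for 37 members, or 48.1% against 15.6%. The family's share of reads averaged 0.285 ± 0.0538% in BPA (SD, n = 4), 0.310 ± 0.0212% in BPA without replicate 4 (n = 3) and 0.327 ± 0.0203% in vehicle (n = 4).

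**Figure D3:**
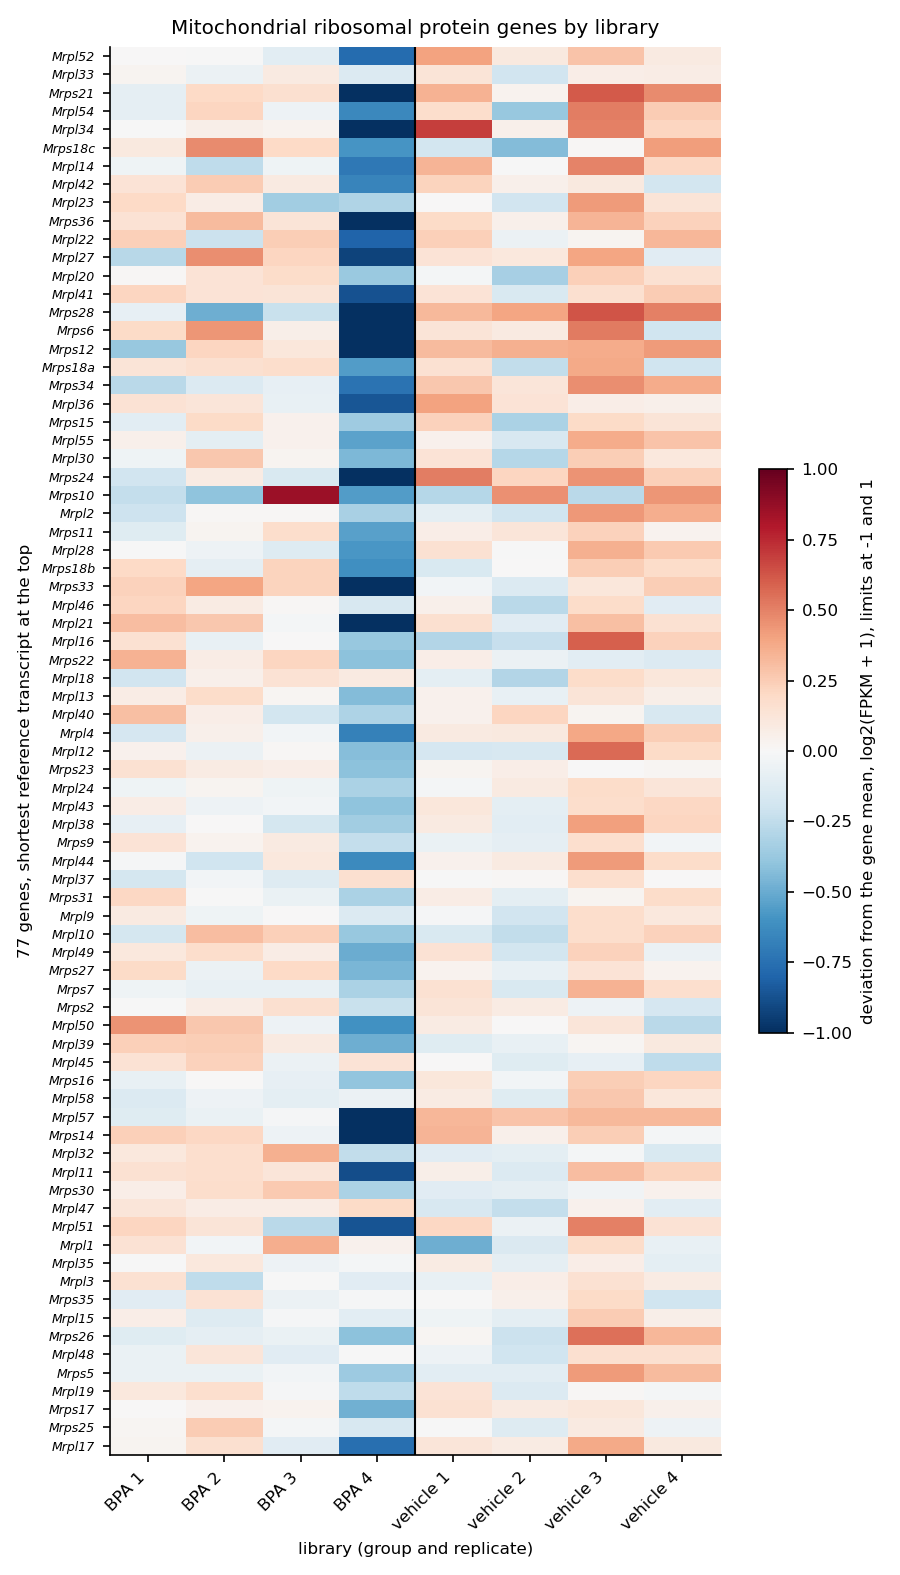
Deviation of each of the 77 tested genes from its own mean over 8 libraries, on the log2(FPKM + 1) scale with colours limited at -1 and 1, with BPA libraries left of the black line, vehicle libraries right of it, and genes ordered by the length of their reference transcript, shortest at the top. The column of BPA replicate 4 is blue for most genes and darkest toward the top, while vehicle replicate 3 is mostly red.

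Within BPA, replicate 4 was set against the other 3 libraries, a comparison that does not involve vehicle. The value in replicate 4 was below the mean of the other BPA libraries for 70 of 77 members. The difference had a median of -0.52 on the log2(FPKM + 1) scale and ran from -1.83 to 0.27, against a median of -0.03 over all tested genes. In FPKM, replicate 4 stood at a median of 66.9% of the other BPA libraries for members and 96.5% for all genes. The median was 60.6% for cytosolic ribosomal protein genes and 68.2% for assembly factor genes of the mitochondrial ribosome. It was 87.1% for mitochondrial translation factor genes and 91.1% for genes that charge mitochondrial tRNAs. The members lowest in this respect were Mrps21 at 26.9%, Mrps36 at 30.5%, Mrps10 at 32.2%, Mrpl34 at 32.3%, Mrps6 at 32.5% and Mrps12 at 34.5%. At the other end were Mrpl47 at 109% and Mrpl37 at 122%. Mrps36 shows how far this single library set a change: it had 27.1, 30.7, 26.8 and 8.60 FPKM in BPA replicates 1 to 4, against 27.9, 25.3, 31.1 and 28.7 FPKM in vehicle. Only BPA replicate 4 lay apart, and the change was -0.40 with it and -0.00 without it.

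Transcript length moved with the deficit of BPA replicate 4. Member transcripts are short, with a median reference length of 1316 bases against 2640 bases over all tested genes. The Spearman correlation of the difference between BPA replicate 4 and the other BPA libraries with length was 0.49 over 77 members and 0.43 over 13364 genes, which share the same 4 libraries and are not independent. Among the 25 members with the shortest transcripts, 418 to 1018 bases, replicate 4 stood at a median of 54.5% of the other BPA libraries. The share was 73.7% in the 27 members of middle length and 78.1% in the 25 with the longest transcripts. By change from vehicle, 24 of the 25 shortest were lower, with a median of -0.27, and without replicate 4 the count was 16 and the median -0.05. Of the 25 longest, 14 were lower with a median of -0.03, and without replicate 4 the count was 13 and the median -0.02. When a smooth trend on length was removed in each library, an alternative chosen after seeing the data, the median change of the members was -0.06 with all libraries and 0.02 without BPA replicate 4. Lower at an unadjusted p under 0.05 after this step were 10 members, or 13.0% against 6.31% of all genes, and without BPA replicate 4 they were 5, or 6.49% against 5.96%.

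**Figure D4:**
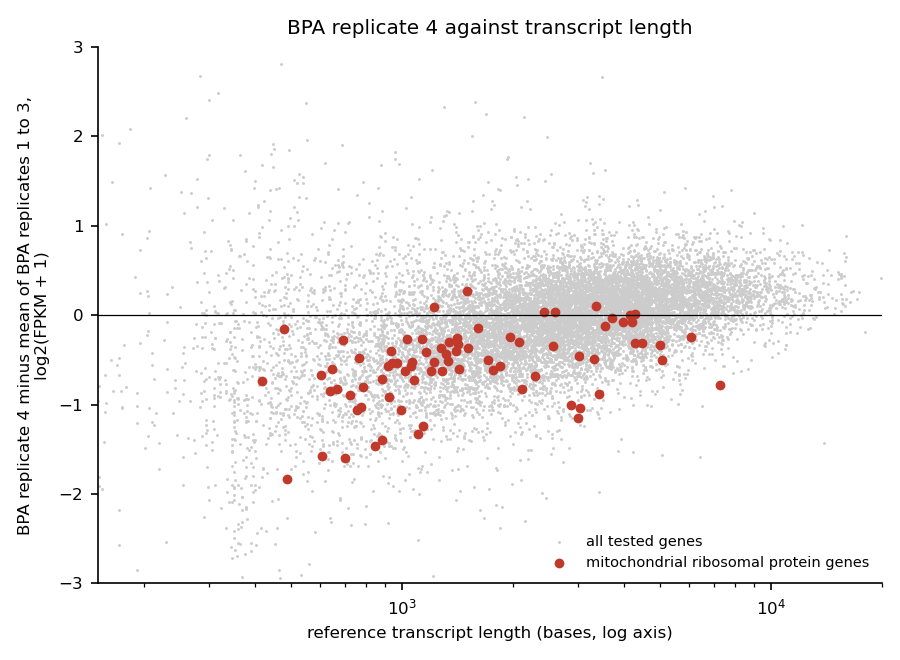
Difference between BPA replicate 4 and the mean of BPA replicates 1 to 3 on the log2(FPKM + 1) scale against the length of the reference transcript in bases on a log axis; red points are the 77 mitochondrial ribosomal protein genes and grey points the other tested genes, of which 224 of 13364 fall outside the axes. Both clouds climb from left to right, and 70 red points lie below 0.

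Base composition moved with the change too. The Spearman correlation of the change with transcript GC content was -0.45 over the members and -0.42 over all tested genes, and -0.46 and -0.45 without BPA replicate 4. Members were not unusual in GC, with a median of 50.1% against 50.2%. After removal of a trend on GC in each library, 57 members were lower and 20 higher in value, and their median was -0.13. With BPA replicate 4 also left out, 39 were lower and the median was -0.01. At an unadjusted p under 0.05, 5 rather than 10 were lower, or 6.49% against 3.86% of all genes, a share that was 6.83% before this step. It was again 5 without BPA replicate 4, against 3.43% of all genes. The part of length, GC content and the library in the lower values of the family was not tested.

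Both subunits shared the pattern. Of the 50 tested large subunit members, 39 were lower in BPA with a median change of -0.13, and without BPA replicate 4 these values were 26 and -0.02. The 26 small subunit members had 21 lower genes and a median of -0.19, and without this library 15 and -0.02. Members with bacterial relatives had a median of -0.21 over 46 genes, and those found only in mitochondrial ribosomes, with Mrps36 counted among them, had -0.09 over 31 genes. Without BPA replicate 4, these medians were -0.05 and 0.03. The 16 small subunit members with bacterial relatives had the lowest median of these classes, -0.26, and every one was lowest in BPA replicate 4. Without that library 12 of the 16 were still lower, with a median of -0.08.

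The small subunit held the member with the lowest change. Mrps28 (ENSMUSG00000040269, chromosome 3 from 8802146 to 8923918 of GRCm38, minus strand) encodes bS1m. It had 21.4, 15.9, 19.3 and 10.3 FPKM in BPA replicates 1 to 4, against 28.7, 30.2, 35.6 and 32.7 FPKM in vehicle replicates 1 to 4. Every BPA library was below every vehicle library, and the highest BPA value lay well under the lowest vehicle value. The means were 16.7 ± 4.86 FPKM in BPA and 31.8 ± 3.03 FPKM in vehicle (SD, n = 4 each), a change of -0.93 on the log2(FPKM + 1) scale with an SE of 0.204. By limma with Benjamini-Hochberg adjustment the p was 0.306, from an unadjusted p of 0.00147. With BPA replicate 4 left out, the BPA mean was 18.9 ± 2.79 FPKM and the change -0.73 with an SE of 0.126 (limma adjusted p = 0.243).

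Mrps34 (ENSMUSG00000038880, chromosome 17 from 24895116 to 24897502, plus strand) encodes mS34, a protein found only in mitochondrial ribosomes. It had 11.6, 12.8, 13.3 and 8.09 FPKM in BPA, against 17.3, 15.4, 19.9 and 18.6 FPKM in vehicle. The groups did not overlap, and the change was -0.61 with an SE of 0.157 (limma adjusted p = 0.355), or -0.47 without BPA replicate 4 (limma adjusted p = 0.319). The annotation places other genes on this one: 63.4% of its exon bases lie opposite exons of Mapk8ip3, and 37.0% are shared with Nme3 on the same strand, which was listed at 0 in all 8 libraries. Whether the authors counted by strand is not given in the sources used here, so its reads and those of Mapk8ip3 may not be fully separated. Counting by strand would not separate its reads from those of Nme3 on the shared bases, so its level is uncertain.

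Mrps24 (ENSMUSG00000020477, chromosome 11 from 5703983 to 5715680, minus strand) encodes uS3m, whose bacterial relative lines the entry of the mRNA channel. Of its exon bases, 15.4% are shared with Urgcp on the same strand, where counting by strand would not separate reads. Mrps24 had 22.7, 27.6, 23.4 and 11.2 FPKM in BPA, against 37.7, 30.4, 36.0 and 31.0 FPKM in vehicle. The highest BPA value was below the lowest vehicle value, and BPA replicate 4 was far below the other BPA libraries. The change was -0.71 with an SE of 0.246 (limma adjusted p = 0.387), and -0.44 without BPA replicate 4 (limma adjusted p = 0.366). Mrps12 encodes uS12m of the decoding centre and was likewise more spread in BPA than in vehicle. It had 16.5, 25.3, 23.6 and 7.51 FPKM in BPA, against a narrow 27.2, 28.0, 28.3 and 29.4 FPKM in vehicle. The groups did not overlap, and its change was -0.73, or -0.38 without BPA replicate 4 (limma adjusted p = 0.453 and 0.464).

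Among large subunit genes, Mrpl14 (ENSMUSG00000023939, chromosome 17 from 45686322 to 45698495, plus strand) had the smallest p over all 8 libraries. It encodes uL14m, a protein at the face where the subunits join. It had 22.3, 19.2, 22.3 and 13.6 FPKM in BPA, against 29.4, 23.0, 32.9 and 26.6 FPKM in vehicle. The groups did not overlap, but BPA replicates 1 and 3 came close to vehicle replicate 2. The change was -0.52 with an SE of 0.176 (limma adjusted p = 0.387), and -0.37 without BPA replicate 4 (limma adjusted p = 0.445). In the annotation, 11.2% of the exon bases of Mrpl14 lie opposite exons of Tmem63b.

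Mrpl57 (ENSMUSG00000021967, chromosome 14 from 57826234 to 57829296, plus strand) encodes mL63, which has no bacterial relative. It had 5.93, 6.19, 6.44 and 2.58 FPKM in BPA, against 8.46, 8.16, 8.39 and 8.44 FPKM in vehicle. Apart from BPA replicate 4, both groups were tight and separate, at 6.19 ± 0.257 FPKM in BPA replicates 1 to 3 and 8.36 ± 0.139 FPKM in vehicle. The change was -0.63 with an SE of 0.222 over all libraries (limma adjusted p = 0.390). It was -0.38 without BPA replicate 4, with an SE of 0.0767 (limma, unadjusted p = 0.00119, adjusted p = 0.298).

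Mrpl28, Mrpl4 and Mrpl52 completed the lower side. Mrpl28, for bL28m, had 49.2, 47.6, 45 and 32.6 FPKM in BPA, against 55.1, 49.1, 63.6 and 59.4 FPKM in vehicle. BPA replicate 1 and vehicle replicate 2 met at the same level, so the groups touched. Mrpl4 encodes uL4m, whose bacterial relative lines the exit tunnel of the nascent chain, and had 25.8, 30.1, 28.5 and 17.8 FPKM in BPA, against 31.0, 31.1, 38.2 and 34.6 FPKM in vehicle. Mrpl52, for mL52, had 17.5, 17.4, 16.1 and 9.77 FPKM in BPA, against 23.2, 18.7, 21.4 and 18.6 FPKM in vehicle. In both, every BPA library was below every vehicle library by a narrow margin. The changes of these 3 genes were -0.39, -0.41 and -0.44, with limma adjusted p of 0.429, 0.432 and 0.437, and each was -0.25 without BPA replicate 4.

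**Figure D5:**
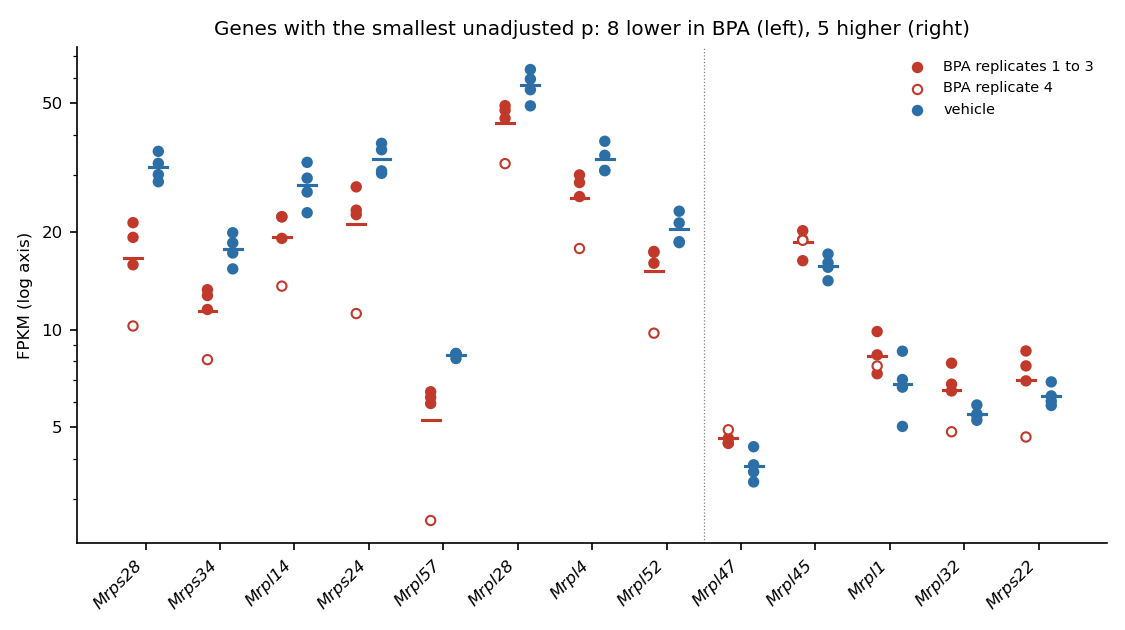
FPKM on a log axis for the 8 lower genes (left of the dotted line) and the 5 higher genes (right) with the smallest unadjusted limma p in each direction; filled red points are BPA replicates 1 to 3, open red points BPA replicate 4, blue points vehicle, and bars the mean of 4. The open point is the lowest of its group in each of the 8 lower genes and in Mrpl32 and Mrps22, and the highest BPA value in Mrpl47.

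The higher side was smaller in change and in number. Mrpl47 (ENSMUSG00000037531, chromosome 3 from 32725397 to 32737605, minus strand) encodes uL29m, near the exit of the tunnel. It had 4.63, 4.46, 4.48 and 4.92 FPKM in BPA, against 3.64, 3.39, 4.36 and 3.83 FPKM in vehicle. All 4 BPA libraries were above all 4 vehicle libraries, and BPA replicate 4 was the highest of them. The change was 0.23 with an SE of 0.0962 (limma adjusted p = 0.440), and 0.20 without BPA replicate 4 (limma adjusted p = 0.525). Of the exon bases of Mrpl47, 13.9% lie opposite exons of Ndufb5 and 10.2% opposite exons of Actl6a.

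Mrpl45 encodes mL45, which ties the large subunit to the inner membrane beside the tunnel exit. It had 19.0, 20.2, 16.3 and 18.9 FPKM in BPA, against 17.1, 15.6, 16.1 and 14.2 FPKM in vehicle. BPA replicate 3 lay among the vehicle values and the other BPA libraries lay above them. The change was 0.23, or 0.22 without BPA replicate 4 (limma adjusted p = 0.461 and 0.532). Mrpl1, for uL1m of the stalk that handles outgoing tRNA, had a change of 0.26, or 0.29 without BPA replicate 4, and the groups overlapped.

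In Mrpl32 and Mrps22, BPA replicate 4 and the other BPA libraries lay on opposite sides of vehicle. Mrpl32 encodes bL32m, which the mitochondrial m-AAA protease trims before it joins the ribosome. It had 6.48, 6.80, 7.89 and 4.85 FPKM in BPA, against 5.44, 5.50, 5.86 and 5.26 FPKM in vehicle. BPA replicates 1 to 3 lay above all vehicle libraries and replicate 4 below them, and the change was 0.19 over all libraries and 0.30 without replicate 4 (limma adjusted p = 0.582 and 0.423). Mrps22, for mS22, had 8.61, 6.96, 7.74 and 4.67 FPKM in BPA, against 6.91, 6.25, 6.02 and 5.84 FPKM in vehicle. Its libraries were placed in the same way, with changes of 0.11 and 0.27 (limma adjusted p = 0.786 and 0.460). Mrps30, which encodes mL65 of the large subunit, had changes of 0.09 and 0.22.

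The promoters of 69 of the 78 members were found in RefSeq's GRCm38.p6 table, each from 250 bases before to 50 bases after the annotated start. In this window were sought, on both strands, the motif of the nuclear respiratory factor NRF1 (GCGCA, any base, then GCGC), an ETS core as bound by GABP (CCGGAAG) and the motif of YY1 (AAGATGGCG). NRF1 and GABP are known activators of nuclear genes for mitochondrial proteins. The NRF1 motif was in 13 of the 69 windows, or 18.8%, against 10.7% of the windows of 9143 tested protein-coding genes. The ETS core was in 25, or 36.2% against 19.0%, and the YY1 motif in 8, or 11.6% against 3.45%. At least 1 of the 3 was in 40, or 58.0% against 29.8%. A match is a description of the letters and not a site of binding.

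Shown here are the windows of 3 members with lower values, of Mrpl45 from the higher side, and of Mrps21, the highest in level. Capitals mark matches to the motifs, and each line runs 5′ to 3′ on the strand of the gene in GRCm38.p6. Mrpl14 holds 1 NRF1 match after the start. Mrpl57 and Mrps21 hold an NRF1 and an ETS match each, both of those in Mrps21 on the opposite strand. Mrps24 holds a YY1 match just after its RefSeq start, which lies inside the span of the gene in the deposited table. Mrpl45 holds 3 NRF1 matches, the last of them on the opposite strand.
Mrpl14, chr17:45686099-45686398, plus strand: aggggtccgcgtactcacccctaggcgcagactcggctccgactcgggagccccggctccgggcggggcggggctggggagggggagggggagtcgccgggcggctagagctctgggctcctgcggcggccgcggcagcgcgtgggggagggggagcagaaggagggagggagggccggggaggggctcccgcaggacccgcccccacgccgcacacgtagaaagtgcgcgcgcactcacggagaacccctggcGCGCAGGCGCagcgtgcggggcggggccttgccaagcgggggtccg
Mrpl57, chr14:57825989-57826288, plus strand: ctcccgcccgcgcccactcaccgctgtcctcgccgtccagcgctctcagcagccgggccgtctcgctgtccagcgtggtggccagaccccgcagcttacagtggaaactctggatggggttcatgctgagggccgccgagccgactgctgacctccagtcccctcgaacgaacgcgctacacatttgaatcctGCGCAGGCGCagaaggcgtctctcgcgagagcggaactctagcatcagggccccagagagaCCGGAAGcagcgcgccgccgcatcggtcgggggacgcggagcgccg
Mrps24, chr11:5707652-5707951, minus strand: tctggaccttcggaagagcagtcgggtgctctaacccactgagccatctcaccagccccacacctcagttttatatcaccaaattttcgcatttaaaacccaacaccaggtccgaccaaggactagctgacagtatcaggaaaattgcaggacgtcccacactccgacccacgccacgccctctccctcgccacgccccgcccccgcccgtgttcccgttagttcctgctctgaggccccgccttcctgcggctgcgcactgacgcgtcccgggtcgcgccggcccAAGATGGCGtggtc
Mrpl45, chr11:97315466-97315765, plus strand: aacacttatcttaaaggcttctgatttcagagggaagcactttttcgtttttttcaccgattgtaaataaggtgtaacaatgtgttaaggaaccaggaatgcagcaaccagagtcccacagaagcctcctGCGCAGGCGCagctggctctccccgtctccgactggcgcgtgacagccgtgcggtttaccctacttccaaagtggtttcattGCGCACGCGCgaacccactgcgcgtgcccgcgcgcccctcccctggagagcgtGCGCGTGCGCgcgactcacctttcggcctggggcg
Mrps21, chr3:95871465-95871764, minus strand: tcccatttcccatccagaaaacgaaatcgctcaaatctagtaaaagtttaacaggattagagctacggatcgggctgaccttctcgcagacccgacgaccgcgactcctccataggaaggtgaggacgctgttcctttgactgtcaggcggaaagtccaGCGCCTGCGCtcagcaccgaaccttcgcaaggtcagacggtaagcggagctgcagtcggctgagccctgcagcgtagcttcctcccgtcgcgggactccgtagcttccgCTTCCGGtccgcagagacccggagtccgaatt

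Changes were also read by motif. The 13 tested members with an NRF1 match had a median change of -0.22, the 24 with an ETS core -0.19, the 8 with a YY1 match -0.09 and the 29 with none of the 3 -0.17. With BPA replicate 4 left out, the medians were -0.11, -0.04, -0.03 and 0.00. Both a low gene, Mrpl14, and a high one, Mrpl45, carry NRF1 matches.

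Many members share a start region with a neighbour. In GENCODE M21, 33 members have a protein-coding gene on the opposite strand whose start lies within 1000 bases. Both genes were tested in 28 cases, with Mrpl46 and Mrps11 counted as partners of each other. Of the 28 members 22 were lower, or 13 without BPA replicate 4, and of their 28 partners 21 were lower, or 18 without it. The partners had a median change of -0.07, or -0.06 without BPA replicate 4. Mrps12 and Sars2, the mitochondrial seryl-tRNA synthetase gene, start 172 bases apart, and Sars2 had a change of -0.04 with and without BPA replicate 4. Mrpl36 starts 29 bases from Ndufs6, a complex I subunit gene, and here the changes were -0.33 and -0.39, or -0.10 and -0.24 without BPA replicate 4.

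Near-identical copies blur some members. In the mouse genome, 25 members have at least 1 processed pseudogene with 90% identity or more over 200 bases or more, and 9 of these 44 copies averaged 0.5 FPKM or more. The clearest case was Mrps10, for uS10m, whose copy AC154457.3 is 97.9% identical over 573 bases. Reads on Mrps10 were 117, 87, 385 and 63 in BPA, against 115, 284, 100 and 272 in vehicle. Reads on the copy were 131, 157, 62 and 210 in BPA, against 127, 55, 137 and 113 in vehicle. BPA replicate 3 and vehicle replicate 2, with many reads on the gene, had the fewest on the copy. The sum ran from 244 to 447 reads in BPA and from 237 to 385 reads in vehicle, and the groups overlapped. The level of Mrps10 is therefore uncertain.

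Genes that serve the same ribosome under other names were read next. Of 5 further subunit genes (Dap3, Ptcd3, Chchd1, Aurkaip1 and Gadd45gip1), 4 were lower in BPA with a median change of -0.32, or -0.16 without BPA replicate 4, and none had an unadjusted p under 0.05. Gadd45gip1 had 3.35 ± 1.49 FPKM in BPA, or 4.04 ± 0.686 FPKM without BPA replicate 4, and 5.19 ± 1.10 FPKM in vehicle. Its change was -0.57, or -0.29 without BPA replicate 4, and the groups overlapped. Ptcd3 had 7.37 ± 1.40 FPKM in BPA, or 7.71 ± 1.49 FPKM without BPA replicate 4, and 6.09 ± 1.02 FPKM in vehicle. Of 31 assembly factor genes, 22 were lower with a median of -0.14, or -0.04 without BPA replicate 4, and 2 of them were lower at an unadjusted p under 0.05, or 6.45% against 6.83% of all genes. One was Mettl17, needed for assembly of the small subunit, with 2.63, 2.89, 2.06 and 1.27 FPKM in BPA, against 3.36, 3.64, 3.68 and 3.12 FPKM in vehicle. The groups did not overlap, and the change was -0.50, or -0.34 without BPA replicate 4 (limma adjusted p = 0.387 over all libraries). The other was Gtpbp6, a GTPase of ribosome recycling and large subunit assembly, at 0.839 ± 0.210 FPKM in BPA and 1.31 ± 0.251 FPKM in vehicle. Its change was -0.33, and -0.26 without BPA replicate 4 (limma, unadjusted p = 0.0367 and 0.0798). On the higher side stood Gtpbp10 and Fastkd2, with changes of 0.25 and 0.21, or 0.32 and 0.13 without BPA replicate 4. BPA replicate 4 was the highest library of Fastkd2, and without it Gtpbp10 had a limma unadjusted p = 0.0341.

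Transcripts of the genes for mitochondrial translation showed no common direction. Of 14 tested translation factor genes, 7 were lower and 7 higher in value, with a median change of -0.04, or 0.05 without BPA replicate 4. Tsfm, the elongation factor Ts of mitochondria, had 11.0, 11.3, 11.6 and 4.75 FPKM in BPA, against 12, 13.1, 13.6 and 15.6 FPKM in vehicle. All BPA libraries were below all vehicle libraries, with a change of -0.51, or -0.24 without BPA replicate 4 (limma adjusted p = 0.476 over all libraries). Oxa1l, which inserts newly made proteins into the inner membrane, had a change of -0.18, and Mtrf1 and Guf1 had changes of 0.24 and 0.14. These values were -0.15, 0.16 and 0.11 without BPA replicate 4. Of 20 genes that charge mitochondrial tRNAs, 11 were higher and 9 lower in value, or 12 and 8 without BPA replicate 4. Ears2, for glutamate, was at 2.36 ± 0.522 FPKM in BPA and 3.40 ± 0.563 FPKM in vehicle, a change of -0.39 (limma adjusted p = 0.408), or -0.28 without BPA replicate 4.

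Of 17 genes for the copying, transcription and RNA processing of mitochondrial DNA, 11 were higher and 6 lower in value, with a median of 0.01, or 0.08 without BPA replicate 4. Mterf2, a regulator of mitochondrial transcription, had 1.74, 2.47, 2.49 and 2.45 FPKM in BPA, against 1.06, 1.12, 1.29 and 1.87 FPKM in vehicle. BPA replicate 1 was below vehicle replicate 4, and the other BPA libraries were above all vehicle libraries. The change was 0.50 with a limma adjusted p of 0.365, or 0.47 without BPA replicate 4. Polrmt, the RNA polymerase of mitochondria, and Twnk, the helicase of its replication fork, had changes of -0.18 and -0.33, or -0.12 and -0.11 without BPA replicate 4. Twnk shares 33.4% of the exon bases of Mrpl43 on the opposite strand.

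The regulators of mitochondrial biogenesis went different ways. Ppargc1a, the coactivator PGC-1 alpha, had 8.04, 8.97, 9.56 and 11.4 FPKM in BPA, against 7.12, 8.03, 6.67 and 5.39 FPKM in vehicle. All BPA libraries lay above all vehicle libraries, with BPA replicate 1 and vehicle replicate 2 almost level. The change was 0.43 (limma adjusted p = 0.374), and 0.35 without BPA replicate 4. Esrra, the estrogen-related receptor that works with this coactivator, had 47.9, 39.3, 43.2 and 45.1 FPKM in BPA, against 55.1, 44.0, 67.9 and 65.3 FPKM in vehicle. Its groups overlapped through vehicle replicate 2, and the change was -0.38 (limma adjusted p = 0.429), or -0.39 without BPA replicate 4. Pprc1, a relative of the coactivator, was lower in every BPA library than in any vehicle library, with a change of -0.20 with and without BPA replicate 4. Nrf1, Gabpa, Gabpb1, Yy1 and Ppargc1b had changes between -0.07 and 0.10, or between -0.12 and 0.06 without it.

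The RNAs of mitochondrial DNA, by contrast, were mostly higher in BPA in value. Of the 13 mRNAs, 10 were higher with a median change of 0.54, or 0.45 without BPA replicate 4, and 9 were higher at an unadjusted p under 0.05, or 69.2% against 4.18% of all genes, with none past adjustment. The other 3 were lower, and of these only mt-Co2 had an unadjusted limma p under 0.05. It was at 366 ± 35.9 FPKM in BPA and 654 ± 328 FPKM in vehicle, a change of -0.72 (limma, unadjusted p = 0.0373). Its change was -0.78 (limma, unadjusted p = 0.0454) without BPA replicate 4, and every remaining BPA library was below every vehicle library. The lowest change of the 13 mRNAs was -0.95, or -1.05 without BPA replicate 4, in neither case that of mt-Co2. The 13 mRNAs had a median GC of 37.1%, against 50.2% over all genes. After GC correction their median change was 0.37 and 7 were higher at an unadjusted p under 0.05, against 3.31% of all genes. Without BPA replicate 4 as well, these were 0.29 and 6, against 2.75%. After length correction they were 0.70 and 9, against 5.0%. The part of GC content was not tested. Of 16 genes of import and inner structure, 8 were higher and 8 lower in value, or 9 and 7 without BPA replicate 4. The rRNAs that the member proteins bind were read from polyadenylated RNA, which does not capture them evenly. The small subunit rRNA mt-Rnr1 had 367, 488, 396 and 1473 FPKM in BPA, against 378, 471, 655 and 387 FPKM in vehicle. The large subunit rRNA mt-Rnr2 had 348, 434, 451 and 2145 FPKM in BPA, against 303, 403, 628 and 318 FPKM in vehicle. In both, BPA replicate 4 was the highest of all libraries and the other BPA libraries overlapped with vehicle, so the library lowest in ribosomal protein transcripts was the highest in these rRNAs.

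Cytosolic ribosomal protein genes, the nearest family in function and also short, were set beside the members. Of their 76 tested genes, 71 were lower in BPA with a median change of -0.32, against 61 of 77 and -0.17 for the mitochondrial family. Without BPA replicate 4, 59 of the 76 were lower with a median of -0.14, against 42 of 77 and -0.02. The difference between the families was not tested.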

How the data were processed

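Gene expression was measured as deposited FPKM in 8 kidney libraries (4 BPA, 4 vehicle). The submitters' processing notes name DESeq2 1.20.0 and the build GRCm38 without a role. The aligner, counter, strand handling and treatment of multiple matches have no entry in the sources used here. The authors' FPKM times gene length gave whole reads, within 0.01 reads, in 100% of values of up to 20 steps, so depth was known. Columns not named for BPA were assigned to vehicle, since the labels hold no further group.

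Changes, on the log2(FPKM + 1) scale, are understated for low genes. They were tested with limma 3.58.1 in R 4.3.3 (trended, robust empirical Bayes, no covariate) over the 13376 genes with a mean of at least 0.5 FPKM, adjusted by Benjamini-Hochberg and called at 0.05, after checks on simulated data. Members, gene lists and tests were chosen with earlier results of these data known. The text names the 8 lower and 5 higher members with the smallest p, the 5 highest and 5 lowest in level, those untested or far from their group, and up to 2 genes per direction of each further list, with all regulators and rRNAs. Mrps12, Mrps16, Mrps17, Mrps30, Mrps36, Mrpl37, Mrps6, Mrpl36 and some partners were named after their values were seen. Reference transcripts for length and GC came from GENCODE M21, promoters from RefSeq, and pseudogene matches from blastn 2.17.0. Tables and plots were made with matplotlib 3.10.9, pandas 2.3.3 and numpy 2.4.6 (Python 3.11.15). Libraries of a group differed by a chi-square of 15.5 or more per gene, so none was a duplicate. Alternatives were other pseudocounts (0.1, 0.5), filters and scalings, library weights, limma-voom on recovered reads, a replicate block, libraries left out, and trends on GC or length removed (loess span 0.5).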

Additional observations from a re-analysis of the deposited data

Results flagged for a closer look

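Values far from the rest of their group were sought with Dixon's criterion for 4 values (the gap to the nearest value as a share of the group's range, at the 95% level) in 50 group values of named members and family summaries. Chance alone gives about 1 in 20 such groups. There were 5 that passed. Mrpl34, for bL34m, was at 19.1 FPKM in BPA replicate 4, against 57.9, 60.3 and 59.4 FPKM in the other BPA libraries. Mrpl57 was at 2.58 FPKM in the same library, against 5.93 to 6.44 FPKM. The summed level of the members was 962 FPKM there, against 1481 to 1547 FPKM in the other BPA libraries, and their median deviation was -0.434 on the log2 scale, against 0.01 to 0.07. Mrps10 was at 2.93 FPKM in BPA replicate 3, against 0.472 to 0.835 FPKM, while its pseudogene copy had 62 reads there against 131 to 210. Over all tested members, the BPA group passed in 9, or 11.7% against 7.63% of all tested genes, and in 8 of these BPA replicate 4 was the low value, or 10.4% of members against 2.12% of all tested genes. The vehicle group passed in 2, or 2.60% against 5.84%.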

How the results depend on the processing

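By limma, 0 members passed adjustment under any alternative with a test. All genes called, 1 over all libraries, were 0 by limma-voom on recovered reads, with the replicate block and after length correction, 8 with library weights, 2 without BPA replicate 4 under either correction, and 0 to 4 with single libraries left out. The members lower in BPA, 61, were 38 without both replicates 4, 29 within replicates 1 and 2, 42 with library weights, 36 and 39 after length or GC correction without BPA replicate 4, and 42 to 69 with single libraries left out, lowest without BPA replicate 4. Their median, -0.17, was 0.0585 within replicates 1 and 2, -0.39 within replicates 3 and 4, and -0.21 to -0.02 with single libraries left out (-0.08 without vehicle replicate 3). Members lower at an unadjusted p under 0.05, 10 (all genes 6.83%), were 19 with a common total (10.8%), 6 without both replicates 4 (5.32%), 5 after GC correction (3.86%), 5 and 5 after length or GC correction without BPA replicate 4 (5.96% and 3.43%), and 5 to 12 with single libraries left out (5.05% to 7.56%), with 5 without vehicle replicate 3 (5.05%) and 6 without vehicle replicate 1 or 4 (5.48% and 5.40%). Members higher at that level, 1 (all genes 4.18%), were 0 with a minimum of 5 FPKM (4.34%), a common total (2.04%), limma-voom (4.46%), the replicate block (3.69%) or GC correction without BPA replicate 4 (2.75%), 2 after quantile normalization (5.49%) or length correction (5.0%), 4 with library weights (5.96%), 5 without both replicates 4 (3.32%), 5 after length correction without BPA replicate 4 (4.73%), and 0 to 3 with single libraries left out (2.73% to 5.04%). The cause of these moves was not tested. Under the replicate block, 9 members were lower at that level (all genes 6.60%) and 0 were higher. Deviations from the group means correlated at 0.14, 0.02, 0.14 and -0.03 between BPA and vehicle libraries of the same replicate number. Libraries of unlike number were not set beside them, so a structure tied to replicate number was not tested. Among the genes named by rule, the direction turned in some members and in some genes outside the family. Among members, Mrpl10 was -0.00457 over all libraries and 0.121 without BPA replicate 4, and Mrpl33 was -0.0350 and 0.00403. With single libraries left out, Gabpb1 ran from -0.0859 to 0.0568, Nrf1 from -0.0714 to 0.0357, Ppargc1b from -0.124 to 0.0873 and mt-Rnr1 from -0.154 to 0.513. Without both replicates 4, Gabpb1 was 0.0383, mt-Rnr1 -0.238 and mt-Rnr2 -0.0571. With library weights, Gabpb1 was 0.0222 and mt-Rnr1 -0.0544. After GC correction, Gabpa was -0.0164, Nrf1 0.034, Polrmt 0.0593 and Ppargc1b 0.147, and without BPA replicate 4 as well, Gabpa was -0.064, Polrmt 0.0814, Ppargc1b 0.0212, mt-Rnr1 -0.34 and mt-Rnr2 -0.144. After length correction, Nrf1 was 0.0418, and without BPA replicate 4 as well, Gabpb1 was 0.0688 and mt-Rnr1 -0.0839. Within replicates 1 and 2, Aars2 was -0.0238, Chchd1 0.0204 and Mtpap -0.0046, and within replicates 3 and 4, Gabpb1 was 0.0127, Nrf1 0.0168, Ppargc1b 0.114 and Yy1 0.0856. Low genes rest on few reads: Mrps10 had 63 in BPA replicate 4.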
